A study of Danio rerio with 6 samples.

Results

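Transcripts of 8 cardiac transcription factor genes were measured in cryoinjured zebrafish ventricles with and without a functional midkine-a gene (*mdka*). The genes are *nkx2.5*, *tbx5a*, *tbx5b*, *mef2ca*, *gata4*, *gata5*, *gata6* and *hand2*, out of 32520 genes in the deposited count table. The identifiers of 6 of them were given, and *tbx5a* and *tbx5b* were found by symbol among 1264 supplementary rows of the study. The study cites these rows for its differentially expressed genes, and they are ranked by its *P*-values, smallest first. The selection of both *tbx5* genes is therefore not independent of the comparison made here. All 8 genes passed the filter on low counts, as did 17879 genes in all.

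RNA came from ventricular apexes of adult AB zebrafish at 7 days post-cryoinjury (dpci), a lesion made by touching the ventricle with a cold copper probe. The *mdka*-KO group was 3 libraries (replicates 2, 3 and 4) of fish with the allele *mdka*cn105, a single CRISPR/Cas9 line mutated in the whole animal. The WT group was 3 libraries (replicates 1, 2 and 4) of *mdka*+/+ fish, which per the design text came, like the mutants, from crosses of the same fish, and every animal of both groups was cryoinjured. Each library was a pool of 3 apexes, so the replicate is the pool. Intact hearts were not analysed here, and the values do not show how a gene responded to injury itself.

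Cardiac transcription factors act as a combinatorial network. Nkx2.5, an NK2 homeodomain protein, Tbx5, a T-box protein, the GATA zinc finger proteins and Mef2c, a MADS-box protein, bind the same cardiac enhancers and recruit one another. Together they maintain the contractile, conduction and natriuretic peptide genes of cardiomyocytes. Hand2, a basic helix-loop-helix protein, is required for the ventricular myocardium and is also expressed outside it. In zebrafish, *gata4* and *hand2* are known to act in heart regeneration.

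Library totals lay between 18940128 and 25195457 expected counts. TMM factors, which correct library sizes for composition, were 1.02 to 1.07 in *mdka*-KO and 0.932 to 0.974 in WT libraries. Levels are given as CPM, counts divided by the library size after this scaling. *mdka* itself had 81.8, 132 and 139 CPM in the *mdka*-KO libraries (mean 118), against 429, 731 and 1070 CPM in the WT libraries (mean 743), and the groups did not overlap. Levels are compared between genotypes and not between genes, because longer transcripts give more reads. In pooled tissue, fewer cells of a type and less RNA per cell cannot be told apart.

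Of the 8 genes, 5 had a lower transcript level in *mdka*-KO ventricles at the threshold used in the study, an unadjusted *p* under 0.05, here from the quasi-likelihood test of edgeR. They were *nkx2.5*, *tbx5a*, *tbx5b*, *mef2ca* and *gata6*, at 58.3% to 75.3% of the WT mean. The other 3 genes, *gata4*, *gata5* and *hand2*, did not pass, and no gene was higher at that threshold. Of all 17879 genes tested, 1148 were lower at the same threshold (6.42%) and 1009 were higher (5.64%), 12.1% in either direction. With scaling by library size only, 4 of the 8 genes were lower, and the genes lower and higher in the whole table were 501 (2.80%) and 2081. With the replicate number as a block, 3 of the 8 were lower, without *gata6* and *mef2ca*, beside 5.36% of all genes. Replicate 3 occurs only in *mdka*-KO and replicate 1 only in WT, so this fit compares the genotypes through replicates 2 and 4 alone. After Benjamini-Hochberg adjustment over all genes, none of the 8 passed in edgeR, where 1 gene in the whole table did (0.00559%). The mutated gene *mdka* did not pass either, with a log2 fold change of -2.66 and an edgeR adjusted *p* of 0.0944. DESeq2's Wald test gave 2 of the 8 an adjusted *p* under 0.05, *tbx5b* (0.0234) and *nkx2.5* (0.0385), beside 445 genes in the whole table (2.49%). Passing is not independent support for *tbx5a* and *tbx5b*, which were found among rows the study cites for its differentially expressed genes. Among the 6 genes given by identifier, 3 passed the unadjusted threshold.

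The median log2 fold change of the 8 genes, *mdka*-KO over WT, was -0.42, beside -0.01 for all genes tested. The estimate was negative for 7 of the 8 genes and for 51.2% of all genes. For 5 of the 8, the same ones, all *mdka*-KO libraries lay below all WT libraries, which was true of 8.97% of all genes, and 17.7% of all genes did not overlap in either direction. Because *tbx5a* and *tbx5b* were found through rows ranked on this contrast, the same description was made for the 6 genes given by identifier. Their median was -0.33, with 5 of 6 estimates negative and 3 of 6 genes not overlapping. The 6 were also chosen with earlier results of these data known, and the 3 that did not overlap occur among those rows too. The 6 genes are therefore not an independent check. Within *mdka*-KO, replicate 4 had the lowest level of 7 of the 8 genes. Without this library, 3 of the 8 genes passed in place of 5, since *gata6* and *tbx5a* no longer did. Genes lower in the whole table then numbered 676, against 1148 with all 6 libraries.

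**Figure D1:**
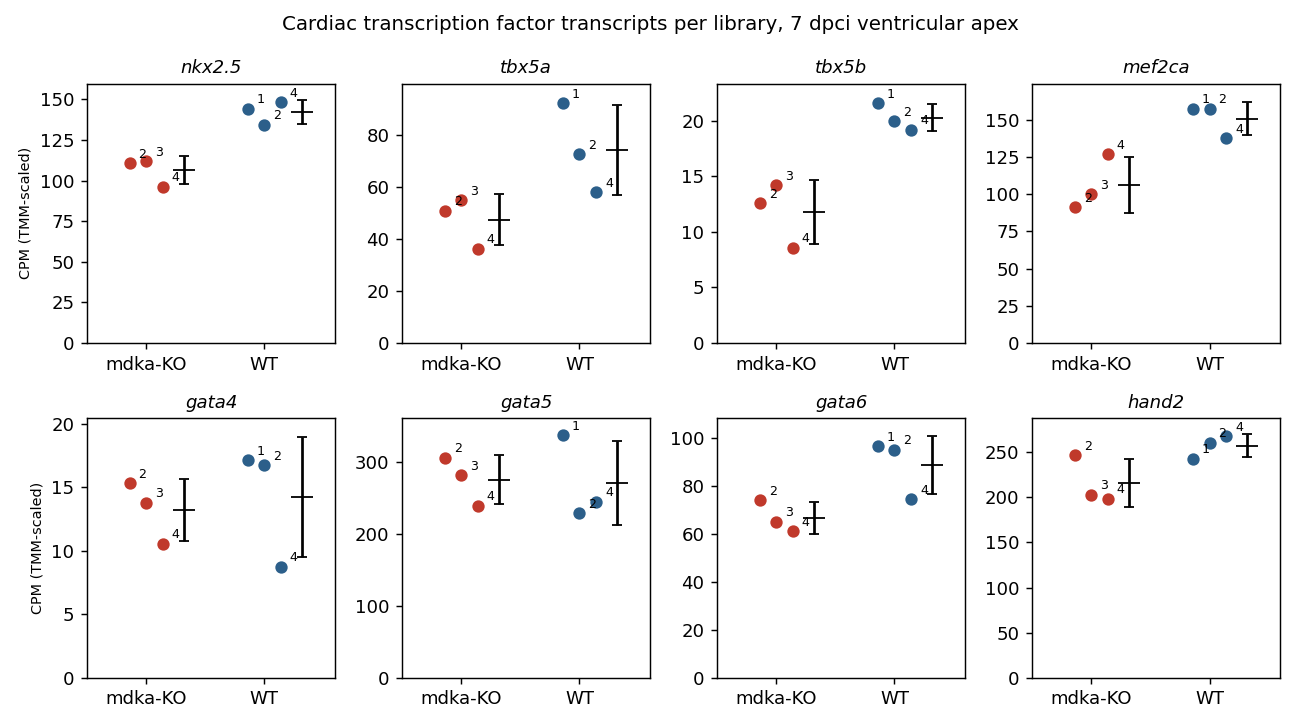
Transcript level of each gene (CPM, linear axes from 0) in the 3 mdka-KO and 3 WT libraries. Points are pools labelled with their replicate number, and bars show mean ± SD. The groups lie apart for nkx2.5, tbx5a, tbx5b, mef2ca and gata6 and overlap for gata4, gata5 and hand2.

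*nkx2.5* (ENSDARG00000018004, chromosome 14 of GRCz11, 24241241 to 24244034, forward strand) encodes the homeodomain factor that maintains ventricular identity in zebrafish. It had 111, 112 and 96.3 CPM in the *mdka*-KO libraries, against 144, 134 and 148 CPM in the WT libraries. The *mdka*-KO values were all below the lowest WT value, and the spread within each genotype was small. The means were 106 ± 8.65 CPM in *mdka*-KO and 142 ± 7.15 CPM in WT ventricles (SD, n = 3 each). This gave a log2 fold change of -0.42 ± 0.11 (SE), with an edgeR adjusted *p* of 0.221 and an unadjusted *p* of 0.00550. The unadjusted *p* stayed under 0.05 for this gene in all 13 alternative fits.

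*tbx5a* (ENSDARG00000024894, chromosome 5, 72264192 to 72289648, reverse strand) and *tbx5b* (ENSDARG00000092060, chromosome 5, 23151169 to 23161715, forward strand) are paralogs of the human limb and heart gene *TBX5*. In zebrafish, loss of *tbx5a* causes the *heartstrings* phenotype. *tbx5a* had 50.8, 55.0 and 36.3 CPM in *mdka*-KO libraries, against 92.2, 72.5 and 57.9 CPM in WT libraries. The groups did not overlap, but the gap was narrow, between *mdka*-KO replicate 3 and WT replicate 4. The estimated log2 fold change of *tbx5a* was -0.65 ± 0.21 (SE), with an edgeR adjusted *p* of 0.284 and an unadjusted *p* of 0.0166.

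*tbx5b* had 12.6, 14.2 and 8.57 CPM in *mdka*-KO libraries, against 21.6, 20.0 and 19.2 CPM in WT libraries. The WT pools were close to each other, and replicate 4 was lowest among the *mdka*-KO pools. Its log2 fold change reached -0.78 ± 0.19 (SE), with an edgeR adjusted *p* of 0.213 and an unadjusted *p* of 0.00404. No other of the 8 genes had a more negative estimate. The ratio of *tbx5b* to *tbx5a* counts within a library does not depend on the scaling. On the log2 scale it averaged -2.02 in *mdka*-KO and -1.85 in WT libraries, a difference of -0.16 (exact two-sided permutation *p* = 0.4, with 0.1 the smallest possible, and 0.5 after adjustment over 3 such ratios). A difference between the paralogs was therefore not detected with 3 pools per genotype.

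*mef2ca* (ENSDARG00000029764, chromosome 10, 43544814 to 43655449, reverse strand) encodes a MADS-box activator of muscle genes. Its level was 91.2, 99.8 and 127 CPM in *mdka*-KO libraries, against 157, 157 and 138 CPM in WT libraries. It was the only one of the 8 genes with its highest *mdka*-KO value in replicate 4. For *mef2ca* the log2 fold change was -0.51 ± 0.15 (SE), with an edgeR adjusted *p* of 0.245 and an unadjusted *p* of 0.00927. With the replicate number as a block the unadjusted edgeR *p* was 0.0576. A second gene annotated as an ortholog of human *MEF2C* (ENSDARG00000009418) had 46.6, 41.4 and 44.4 CPM in *mdka*-KO libraries, against 71.3, 54.3 and 45.3 CPM in WT libraries. It did not pass the unadjusted threshold in edgeR, with a log2 fold change of -0.37 (95% interval -0.76 to 0.03).

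The GATA factors, which bind the motif they are named for, differed in their estimates. *gata6* (ENSDARG00000103589, chromosome 2, 4207209 to 4217887, forward strand) had 74.2, 65.2 and 61.2 CPM in *mdka*-KO libraries, against 96.7, 95.2 and 74.7 CPM in WT libraries. The groups were separated only by the small step between *mdka*-KO replicate 2 and WT replicate 4. On the log2 scale the fold change of *gata6* was -0.41 ± 0.14 (SE), with an edgeR adjusted *p* of 0.302 and an unadjusted *p* of 0.0194. The unadjusted *p* of *gata6* was above 0.05 in 3 of 6 leave-one-out fits, those without *mdka*-KO replicate 3 (0.0603), *mdka*-KO replicate 4 (0.0713) or WT replicate 2 (0.0621). Scaling by library size alone gave 0.0767, and the replicate number as a block gave 0.0603.

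*gata5* (ENSDARG00000017821), which is needed for endoderm and myocardium in the zebrafish embryo, had 305, 281 and 239 CPM in *mdka*-KO libraries. In WT libraries it had 337, 229 and 244 CPM. The groups overlapped, and the WT values enclosed all the *mdka*-KO values. For *gata5* the log2 fold change was 0.03 (95% interval -0.38 to 0.43, unadjusted *p* = 0.877 from edgeR), so a change of any size within that interval remains possible. The log2 ratio of *gata6* to *gata5* counts averaged -2.04 in *mdka*-KO and -1.59 in WT libraries, a difference of -0.45. Its exact two-sided permutation *p* was 0.1, the smallest that 3 pools against 3 can give, and 0.3 after adjustment over the 3 ratios examined. These ratios, of which the remaining one is that of *mef2ca* to the second *MEF2C* ortholog (difference -0.18, exact permutation *p* = 0.5), were chosen after the values had been seen.

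*gata4* (ENSDARG00000098952), a factor known to mark the regenerating cortical myocardium of zebrafish, had 15.3, 13.8 and 10.6 CPM in *mdka*-KO libraries. In WT libraries it had 17.1, 16.7 and 8.75 CPM. WT replicate 4 had the lowest value of all, and the groups overlapped. For *gata4* the log2 fold change was -0.10 with a wide 95% interval, -0.73 to 0.53 (unadjusted *p* = 0.712 from edgeR). Its sign was not stable, with 0.03 when only library size was used and values between -0.36 and 0.05 when single libraries were left out.

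*hand2* (ENSDARG00000008305) had 247, 203 and 198 CPM in *mdka*-KO libraries, against 243, 261 and 268 CPM in WT libraries. One *mdka*-KO pool, replicate 2, reached the WT range, and the other 2 lay below it. The estimate for *hand2* was a log2 fold change of -0.25 (95% interval -0.54 to 0.04, unadjusted *p* = 0.0775 from edgeR). Without *mdka*-KO replicate 2 it was -0.37, with an unadjusted edgeR *p* of 0.0285.

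**Figure D2:**
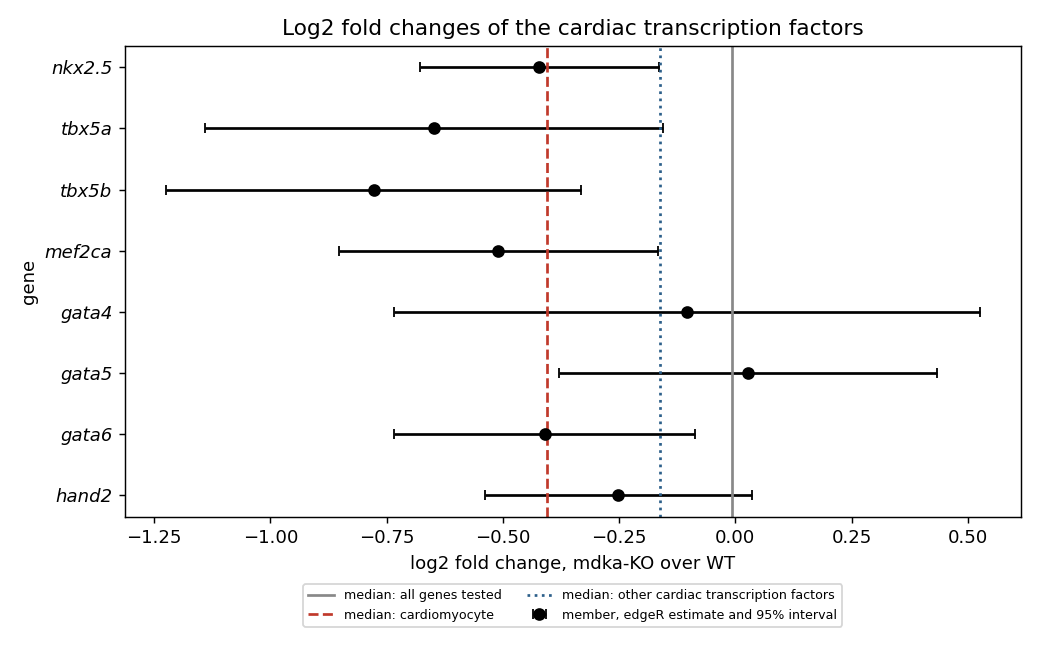
Log2 fold change (mdka-KO over WT, x axis) of the 8 genes with 95% intervals from edgeR. Vertical lines are the medians of all genes tested (-0.01), of the cardiomyocyte markers (-0.40) and of the other cardiac transcription factors (-0.16). The intervals of gata4, gata5 and hand2 include 0, and those of all genes except gata5 include the cardiomyocyte median.

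Cardiomyocyte transcripts moved in the same direction. Of 10 contractile protein genes used as cardiomyocyte markers, 7 were lower in *mdka*-KO ventricles at the unadjusted threshold in edgeR and none was higher. Of all genes tested, 6.42% were lower and 5.64% higher at that threshold. The listed symbols *vmhc*, *vmhcl*, *myh7l*, *ttn.1*, *ttn.2* and *desma* were not matched, so these genes are not among the 10. None of the 10 had an adjusted *p* under 0.05 in edgeR, and DESeq2 gave 1, *tnni1b* (adjusted *p* = 0.00188). Their log2 fold changes lay between -0.58 and -0.28, with a median of -0.40. They included *tnni1b*, a troponin I gene (-0.53), *mybpc3*, which encodes cardiac myosin binding protein C (-0.46), and *actc1a*, a cardiac actin gene (-0.38). Their summed level was 53220, 51950 and 43460 CPM in *mdka*-KO libraries, against 69720, 62000 and 64200 CPM in WT libraries. All the *mdka*-KO sums were below the WT sums, and replicate 4 was again the lowest. Among single genes, 8.97% of all tested had every *mdka*-KO library below every WT library. The number of markers passing the unadjusted threshold fell to 1 of 10 with scaling by library size only, to 3 without *mdka*-KO replicate 4 and to 3 with the replicate number as a block. Genes lower in the whole table numbered 501 (2.80%), 676 and 958 (5.36%) in these fits, in that order.

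Each transcription factor was therefore also expressed relative to these markers, as its log2 CPM minus the mean log2 CPM of the 10 markers in the same library. That mean was 10.74, 10.60 and 10.43 in *mdka*-KO libraries, against 10.89, 11.06 and 11.06 in WT libraries, a difference of -0.41. Each marker counted equally in this mean, whatever its level. The markers included *myh6* and a second *TNNT2* ortholog (ENSDARG00000100694), which entered through the symbol of its human ortholog. On this relative scale, *nkx2.5* averaged -3.86 ± 0.08 in *mdka*-KO and -3.85 ± 0.13 in WT libraries (SD, n = 3 each), a difference of -0.01. For *gata6* the difference was 0.0036, where the CPM alone had differed by -0.40 on the log2 scale. For *mef2ca* it was -0.11, and the libraries of both genotypes overlapped for all 3 genes.

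The T-box genes had a negative difference relative to the markers, -0.24 for *tbx5a* and -0.40 for *tbx5b*, but their libraries also overlapped. Without WT replicate 1 the difference of *tbx5a* was -0.012. The exact two-sided permutation *p* was 0.6 for *tbx5a* and 0.2 for *tbx5b*. The differences of *gata5* and *gata4* were positive, 0.45 (exact permutation *p* = 0.2) and 0.35 (exact permutation *p* = 0.7). That of *gata4* was 0.0083 without WT replicate 4, its lowest library. In log2 CPM alone, before the marker mean was subtracted, the difference was only 0.042 for *gata5* and -0.057 for *gata4*. With the marker mean, *hand2* was the only gene whose relative values did not overlap. They were -2.80, -2.94 and -2.80 in *mdka*-KO libraries, against -2.97, -3.03 and -2.99 in WT libraries, a difference of 0.15 (exact permutation *p* = 0.1, the smallest possible, and 0.533 after adjustment over the 8 genes). On this scale the groups did not overlap for 39.1% of all genes, so 1 of 8 is not a result about these genes. With the median of the markers in place of their mean, the exact permutation *p* of *hand2* was 0.3, and its groups overlapped. That of *gata5* (difference 0.47) and of *tbx5b* (-0.37) was then 0.1, a value reached only by groups that do not overlap. Which genes lay apart therefore depended on how the markers were summarised.

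**Figure D3:**
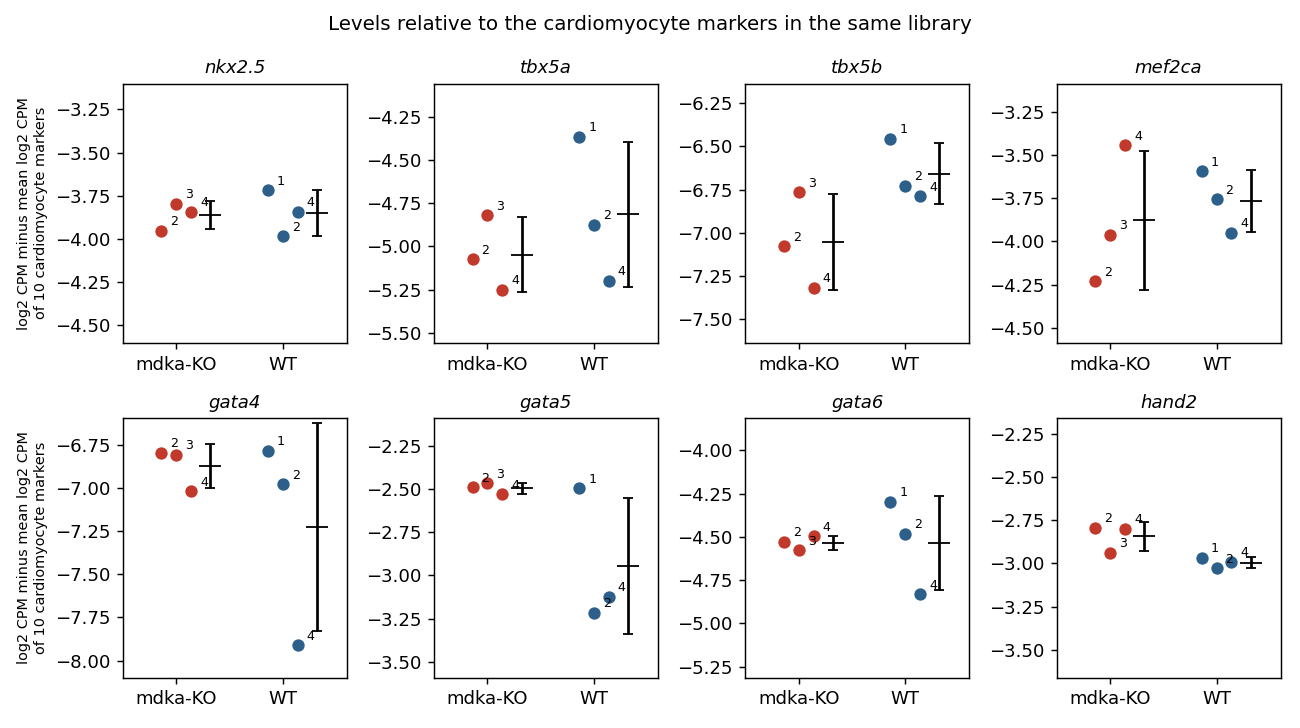
Log2 level of each gene minus the mean log2 CPM of 10 cardiomyocyte markers in the same library (y axis, the same 1.5-unit span in every panel). Points are pools labelled with their replicate number, and bars show mean ± SD. The mdka-KO and WT pools overlap for every gene except hand2.

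Markers of other cells also differed between the genotypes. Of 10 fibroblast and matrix genes, 6 were higher in *mdka*-KO at the unadjusted threshold in edgeR. At that threshold, 5.64% of all genes tested were higher and 6.42% were lower. The summed level of the 10 was 12350 to 14870 CPM in *mdka*-KO and 9311 to 12540 CPM in WT libraries. All the matrix genes that passed are ones the study names as upregulated in these same data. The list was chosen with that known, so its count and sum are not independent evidence about fibroblasts. Of 5 erythroid genes 4 were higher (4457 to 9836 CPM in *mdka*-KO and 2890 to 5056 CPM in WT libraries). Of 8 smooth muscle genes 4 were higher, and the sums of the 8 did not overlap (1197 to 1397 CPM in *mdka*-KO and 914 to 1122 CPM in WT libraries). Among single genes, 17.7% of all tested did not overlap in either direction. Of the 4, *mylkb* had only 0.63 to 8.3 CPM over both genotypes, and the *MYH11* ortholog ENSDARG00000009782 overlapped between genotypes. Of 8 endothelial and endocardial genes 1 was higher, *tie1*, a receptor gene. None of 5 epicardial genes passed in either direction. Among 7 macrophage and neutrophil genes, 3 were higher and 1, the lysozyme gene *lyz* of neutrophils, was lower. Of the 3, *marco* and *ptprc* overlapped between genotypes. *lyz* had 42.9 CPM in WT replicate 1, but 9.49 and 8.22 CPM in WT replicates 2 and 4, against 2.44 to 5.11 CPM in *mdka*-KO libraries. Of the markers matched, 1 cardiomyocyte, 2 smooth muscle and 1 erythroid gene were at or near 0 counts and were not tested. The part of these cell populations in the levels of the 8 genes was not tested.

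Other transcription factors of the heart were examined as a list of 32 tested genes. Of these, 2 were lower at the unadjusted threshold in edgeR, none was higher and 30 did not pass, with a median log2 fold change of -0.16. Since 6.42% of all genes tested were lower, 2 of 32 is not a result about this list. The count of lower genes was 1 without *mdka*-KO replicate 3 or 4 and 4 without WT replicate 1 or 4. *irx1a*, an Iroquois homeobox gene, had 59.3, 47.8 and 36.2 CPM in *mdka*-KO libraries, against 110, 88.8 and 64.6 CPM in WT libraries. The groups lay apart, and the log2 fold change was -0.88 ± 0.24 (SE), with an edgeR adjusted *p* of 0.231 and an unadjusted *p* of 0.00652. *nkx2.7*, a paralog that shares functions with *nkx2.5* in the zebrafish ventricle, was close to the limit of measurement, at 0.70 ± 0.18 CPM in *mdka*-KO and 1.30 ± 0.25 CPM in WT ventricles (SD, n = 3 each). Its log2 fold change was -0.88 (unadjusted *p* = 0.0374 from edgeR), and 7 alternative fits gave an unadjusted *p* above 0.05. The 2 most abundant genes of the list did not pass. The log2 fold change was 0.12 for the *MEIS1* ortholog ENSDARG00000012078, a homeobox cofactor gene, and -0.22 for *mef2d*. Without WT replicate 1 these estimates were 0.27 for the *MEIS1* ortholog and -0.11 for *mef2d*. Without WT replicate 4 they were 0.0018 for the *MEIS1* ortholog and -0.32 for *mef2d*, whose unadjusted edgeR *p* was then 0.0408.

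Of 21 tested cofactors of these proteins, 1 was higher and none was lower at the unadjusted threshold in edgeR, and the median log2 fold change was 0.0025. Since 5.64% of all genes tested were higher, 1 of 21 is not a result about the cofactors. The gene that was higher was *zfpm2b*, which encodes a Friend of GATA protein that binds GATA factors. It had 18.8, 14.1 and 16.4 CPM in *mdka*-KO libraries, against 10.2, 12.7 and 7.43 CPM in WT libraries. Every *mdka*-KO pool was above every WT pool, with a log2 fold change of 0.70 ± 0.21 (SE), an edgeR adjusted *p* of 0.262 and an unadjusted *p* of 0.0118. The Hippo pathway coactivator gene *yap1* had 119 ± 2.44 CPM in *mdka*-KO and 118 ± 16.3 CPM in WT ventricles (SD, n = 3 each). The log2 fold change was -0.36 for *hdac9b*, a class II histone deacetylase gene, and -0.19 for the *SMARCD3* ortholog ENSDARG00000019969, a chromatin remodelling subunit gene, and neither passed. Both estimates moved with single WT libraries. *hdac9b* was -0.12 without WT replicate 1 and -0.49 without WT replicate 2, where its unadjusted edgeR *p* was 0.0329. The *SMARCD3* ortholog was -0.31 without WT replicate 1, with an unadjusted edgeR *p* of 0.0424, and -0.099 without WT replicate 2.

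Of 3 other GATA genes tested, *gata1a*, the erythroid GATA factor, was higher in *mdka*-KO ventricles at the unadjusted threshold and the other 2 did not pass. At that threshold 5.64% of all genes tested were higher, and a list of 3 genes is too short to be described by its count. It had 21.6, 12.5 and 18.1 CPM in *mdka*-KO libraries, against 8.37, 10.2 and 10.01 CPM in WT libraries. The log2 fold change was 0.87 ± 0.21 (SE), with an edgeR adjusted *p* of 0.213 and an unadjusted *p* of 0.00382. The higher level stood beside the erythroid markers given above.

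A list of 20 tested genes covered conduction, calcium handling, muscle structure and stress, and several are textbook targets of these factors in mammals. Of the 20, 8 were lower and 1 was higher at the unadjusted threshold in edgeR, beside 6.42% and 5.64% of all genes tested. The median log2 fold change of the 20 was -0.41. None had an adjusted *p* under 0.05 in edgeR, and DESeq2 gave 3, *hspb7* (0.00373), *kcnh6a* (0.0390) and *slc8a1a* (0.0462). *hspb7*, a cardiac small heat shock protein gene, had 683, 561 and 559.9 CPM in *mdka*-KO libraries, against 961, 890 and 866 CPM in WT libraries. Its groups were well apart, with a log2 fold change of -0.59 ± 0.12 (SE). *gja5b*, a connexin gene whose mouse ortholog depends on Tbx5 and Nkx2.5, had 61.7, 56.4 and 49.0 CPM in *mdka*-KO libraries, against 83.9, 68.1 and 92.1 CPM in WT libraries, a log2 fold change of -0.55 ± 0.15 (SE). A second *GJA5* ortholog of the list (ENSDARG00000040065) had 44.3, 49.2 and 41.0 CPM in *mdka*-KO libraries, against 47.9, 71.9 and 62.1 CPM in WT libraries. Its groups overlapped, with a log2 fold change of -0.44 (unadjusted *p* = 0.0292 from edgeR). This ortholog was named after its values had been seen. The remaining named genes had log2 fold changes of -0.59 for *slc8a1a*, a sodium-calcium exchanger gene, -0.39 for *ldb3b*, a Z-disc gene, -0.99 for *kcnh6a*, a potassium channel gene, and -0.56 for *atp2a2a*, the SERCA2 calcium pump gene. *kcnh6a* had 388, 249 and 351 CPM in *mdka*-KO libraries, against 1004, 488 and 477 CPM in WT libraries, and without WT replicate 1, the high one, its estimate was -0.55. Without *mdka*-KO replicate 3 the unadjusted edgeR *p* of *kcnh6a* was 0.0511. *atp2a2a* had an estimate of -0.37 without WT replicate 1, and its unadjusted edgeR *p* was above 0.05 without that library (0.0578), without *mdka*-KO replicate 3 (0.0701) or 4 (0.0647) and with scaling by library size only (0.0520).

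The single gene of this list that was higher was the *XIRP2* ortholog ENSDARG00000091090, at only 1.30 to 1.77 CPM in *mdka*-KO and 0.651 to 1.054 CPM in WT libraries. The natriuretic peptide genes *nppa* and *nppb* are classical targets of Nkx2.5, Gata4 and Tbx5 in mammals. *nppa* had 3091, 2399 and 2923 CPM in *mdka*-KO libraries, against 3308, 2963 and 4319 CPM in WT libraries. *nppb* had 1042, 323 and 811 CPM in *mdka*-KO libraries, against 808, 1146 and 1022 CPM in WT libraries. The groups overlapped for both, and neither passed (log2 fold change -0.33, 95% interval -0.74 to 0.08, and -0.45, -1.33 to 0.43). These 3 genes were named after their values had been seen. The number of the 20 genes that were lower at the unadjusted threshold was 5 without *mdka*-KO replicate 4 and 4 with scaling by library size only. Genes lower in the whole table numbered 676 and 501 (2.80%) in these fits, in that order.

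The genes whose profile over the 6 libraries was most like the median profile of the 8 factors were *cluha*, *pink1*, the *CLIP1* ortholog ENSDARG00000078722, *tcf7l1b* and *cnot6l*. Likeness was the root mean square difference of log2 CPM after each profile was centred, which was 0.05 to 0.06 for these genes and had a median of 0.28 over 8574 genes with a symbol and at least 10 CPM. For example, *pink1*, a mitochondrial quality control kinase gene, had 127, 134 and 112 CPM in *mdka*-KO libraries, against 167, 169 and 149 CPM in WT libraries. *cluha*, whose product is needed for mitochondrial distribution, had 92.6, 89.9 and 79.3 CPM in *mdka*-KO libraries, against 128, 115 and 103 CPM in WT libraries. The median profile is itself lower in *mdka*-KO, so the separation of these genes between genotypes follows from how they were chosen.

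**Figure D4:**
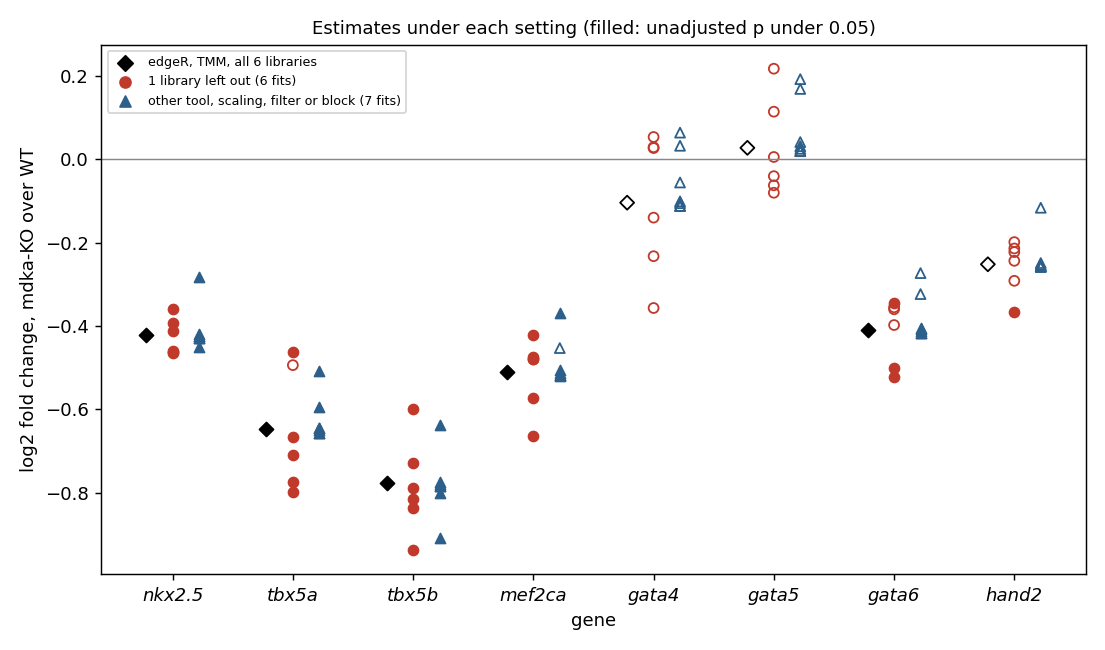
Log2 fold change (mdka-KO over WT, y axis) of each gene in the edgeR fit with TMM, in 6 leave-one-out fits and in 7 fits with another tool, scaling, filter or a replicate block. Filled symbols have an unadjusted p under 0.05. All symbols of nkx2.5 and tbx5b are filled and below 0, while those of gata4 and gata5 are open and fall on both sides of 0.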

How the data were processed

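RNA was sequenced from 6 libraries, 3 of *mdka*-KO and 3 of WT pools of 3 apexes, and libraries were grouped by their labels. The authors made stranded libraries with 60 base single reads, demultiplexed them with bcl2fastq 2.20.0.422, mapped them against the GRCz11 transcriptome and deposited RSEM expected counts for 32520 genes, neither scaled nor filtered. Reads shared by close paralogs are apportioned by RSEM, which makes their counts estimates.

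Counts were rounded and tested with edgeR 4.0.16 (R 4.3.3) after filterByExpr (minimum count 10, minimum total 15) and TMM, by a two-sided quasi-likelihood test without covariates. Adjustment followed Benjamini and Hochberg over the 17879 genes tested. The SE of an estimate was its size divided by the square root of F, and log2 CPM used a prior count of 2. Alternatives were DESeq2 1.42.0, limma-voom (limma 3.58.1), other scalings and filters, a replicate block and each library left out. The edgeR fit was also run on simulated counts in which every gene had the same dispersion, the variability between libraries. That simulation does not show how the fit performs where the dispersion differs between genes.

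The 8 genes and all lists were chosen with earlier results of these data known. Of 148 listed symbols, 134 were matched through an identifier table. It gives some genes the symbol of their human ortholog, and then all orthologs entered. Another 6 symbols, present only among the supplementary rows, were left out because those rows are ranked by *P*. Symbols and GRCz11 positions of 5 of the genes came from those rows, with no measured value, and the positions of *gata4*, *gata5* and *hand2* are not given. In each list up to 6 genes with the smallest *p* under 0.05 could be named, and in the lists of transcription factors and cofactors also the 3 most abundant. The 5 genes closest in profile were taken from those with a symbol and at least 10 CPM. Library depth was 18940128 to 25195457 counts, each group had 3 pools, and no exact test on 3 against 3 can go below *p* = 0.1. Sequences were not used here.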

Additional observations from a re-analysis of the deposited data

How the results depend on the processing

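Over the 6 leave-one-out fits, the number of the 8 genes lower at an unadjusted *p* under 0.05 in edgeR was 3 to 6, the number with an adjusted *p* under 0.05 was 0, and the median log2 fold change was -0.46 to -0.36. Over the other 7 alternatives that median was -0.42 to -0.28. The largest shift came from scaling by library size only, which moved the median of all genes to 0.13. In the leave-one-out fits, genes lower in the whole table numbered 676 to 1380, against 1148 with all 6 libraries.

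The replicate numbers 2 and 4 occur in both genotypes, but same-numbered libraries did not deviate together (correlations 0.089 and 0.0024 over 17879 genes). With the replicate number as a block, 3 of the 8 genes passed the unadjusted threshold, and *gata6* and *mef2ca* no longer did. In that fit *mdka*-KO replicate 3 and WT replicate 1 have no counterpart, so its genotype estimates rest on replicates 2 and 4. The block gave *kcnh6a* -0.38 and *atp2a2a* -0.31, the second with an unadjusted edgeR *p* of 0.0907. The log2 fold change in the block was -0.32 for *gata6*, -0.45 for *mef2ca* and 0.064 for *gata4*. DESeq2 gave 2 genes an adjusted *p* under 0.05. With library size only, *gata6* was -0.27 and *gata4* 0.033. Genes lower and higher in the whole table then numbered 501 and 2081, against 1148 and 1009 with TMM.

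With single libraries left out, log2 fold changes were -0.36 to 0.054 for *gata4*, -0.080 to 0.22 for *gata5*, -0.52 to -0.35 for *gata6*, -0.37 to -0.20 for *hand2*, -0.80 to -0.46 for *tbx5a* and -0.057 to 0.13 for *yap1*. Relative to the cardiomyocyte markers they were -0.082 to 0.050 for *nkx2.5* (0.0082 with the median of the markers), -0.14 to 0.12 for *gata6*, -0.33 to 0.064 for *mef2ca*, -0.43 to -0.012 for *tbx5a* and 0.0083 to 0.57 for *gata4*. The cause of these changes was not tested. *nkx2.5* and *tbx5b* kept direction and threshold in all 13 alternatives. Both genes are among the supplementary rows the study cites for its differentially expressed genes, so this is not independent support.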
